A study of Mus musculus with 8 samples.

Results

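The interferon response and antigen presentation genes described here are 35 listed genes of mouse embryonic stem (ES) cells: transcription factors and RNA sensors of the interferon pathway, interferon-induced effectors, guanylate-binding proteins (GBPs), Schlafen genes, and genes of the major histocompatibility complex (MHC) class I pathway. They were chosen by name, with earlier results of these data known. All 35 were found among the 26014 genes of the count tables (an accession stands for a gene where no symbol was found). The 8 RNA libraries form 4 groups of 2 and follow expression after degradation of the transcription factor OCT4 or withdrawal of the cytokine LIF. All cells were V6.5 ES cells, a C57BL/6-129 line kept on gelatin in 2i medium, per the labels, which do not say whether 2i stayed in place without LIF; polyA RNA was sequenced in single 40-base reads from a strand-marking kit. In the groups called DMSO and dTAG, OCT4 carries FKBP, and a degrader compound (dTag9 in the labels) binds this tag and recruits the cell's degradation machinery; these cells received DMSO or the compound for 24 h. The groups called LIF and no LIF are the untagged V6.5 line (WT), with normal LIF or 5 days after its removal. No untagged cells received the compound, so effects of the compound itself and of losing OCT4 cannot be told apart. The labels say neither whether the tagged line is 1 clone nor whether replicates were separate cultures, so p-values here measure only how far these libraries spread, possibly for technical reasons.

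Interferons act through receptors whose kinases phosphorylate STAT proteins. STAT2 and IRF9 belong to a complex that binds the interferon-stimulated response element (ISRE) of target genes, while the gamma-activated sequence (GAS) is the element known for the response to interferon gamma. Among the induced genes are antiviral effectors, GTPases and the machinery that cuts proteins into peptides, carries the peptides into the endoplasmic reticulum and loads them on MHC class I molecules. Pluripotent cells are known for a weak interferon response and for little MHC class I on their surface.

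The depth was 7221451 to 11447468 counted reads per library, and values are in CPM, read counts relative to a library size scaled by the TMM method. Reads that fit several RefSeq accessions were counted to none of them and came to 42.2% to 43.0% of counted plus such ambiguous reads in a library. The 8 ES cell markers summed to 4486 to 4535 CPM with LIF, 2261 to 2309 CPM without it, 3253 to 3274 CPM in DMSO and 1158 to 1179 CPM with dTAG, and each had reads in every group. Among the 8 blood cell markers, Ptprc, Adgre1 and Lyz2 had 0 reads in every library; of these only Lyz2 has a single accession.

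How much can be read of each member depended on its accessions. Of the 21 members with 1 accession, 17 passed the low-count filter (about 1.07 CPM in at least 2 libraries and at least 15 reads in all), and of the 14 with several accessions 3 passed, Irf3, H2-K1 and Tap1. The 20 members that passed were tested, and 15 were not. Irf7, the amplifier of the type I interferon response, had 0 reads over the 8 libraries and Irf1, a factor of the interferon gamma response, had 3. Both have 3 accessions, so a low count says nothing of their expression. The same holds for Irf2 (11 reads), Irf9 (21 reads) and Ifih1, which encodes the RNA sensor MDA5 (7 reads). It also holds for Isg20, an exonuclease (16 reads), Gbp3 (3 reads) and Tapbp, the loading factor tapasin (6 reads).

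Several gene families hold near-identical copies. In GENCODE vM21 transcripts, 51.8% of the 40-base windows of Ifitm2, 14.7% of those of Ifitm3, 20.6% of those of H2-D1, 15% of those of H2-K1 and 16.9% of those of Slfn9 also occur in a transcript of another gene; 40 bases is the read length in the labels. Ifit3 and Psme2 share 56.2% and 62.9% of their windows, largely with Ifit3b and Psme2b. Psme1 shares 18.6% of its windows, with Gm7776 and Gm46496. Reads from such windows could be lost or assigned to a copy. Gbp2 and Gbp2b share little in exact 40-base windows, 3.07% and 2.73%. Tap1 and Psmb9 start next to each other on opposite strands, and 7.18% and 15.7% of their exon bases lie under the other gene. In GENCODE, 15.8% of the exon bases of Tap2 and 11.4% of those of Psmb8 also lie under genes of the opposite strand. Use of the strand in counting was not given in the sources used here. Reads in these overlaps therefore cannot be assigned to either gene with certainty.

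Start regions of 6 members are shown because they hold the interferon motif and their transcripts went in both directions. They come from RefSeq on GRCm38.p6, are written 5′ to 3′ on the gene's strand, and end 1 base before the annotated transcript start except for Stat2, whose stretch ends 101 bases before it. Capitals mark matches to the ISRE core, spelled GAAA, any 2 bases and GAAA again, on either strand. Gbp2, Gbp2b, Isg15 and B2m rose after LIF withdrawal, while Slfn9 and Stat2 fell.
Gbp2 (chr3:142620513-142620662, plus strand): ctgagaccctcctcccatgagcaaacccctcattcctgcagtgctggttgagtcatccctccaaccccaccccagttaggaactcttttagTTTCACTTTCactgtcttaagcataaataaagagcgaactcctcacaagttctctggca
Gbp2b (chr3:142594697-142594846, plus strand): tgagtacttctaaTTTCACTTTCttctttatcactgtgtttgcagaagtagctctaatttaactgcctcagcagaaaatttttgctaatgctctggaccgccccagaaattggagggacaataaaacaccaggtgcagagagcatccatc
Isg15 (chr4:156200819-156200968, minus strand): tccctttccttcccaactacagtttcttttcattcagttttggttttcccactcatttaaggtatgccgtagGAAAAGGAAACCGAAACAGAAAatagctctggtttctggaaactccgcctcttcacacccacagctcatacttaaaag
B2m (chr2:122147537-122147686, plus strand): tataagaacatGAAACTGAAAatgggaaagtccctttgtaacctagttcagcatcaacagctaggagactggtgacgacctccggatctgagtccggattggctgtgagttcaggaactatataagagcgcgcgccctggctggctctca
Slfn9 (chr11:82991831-82991980, minus strand): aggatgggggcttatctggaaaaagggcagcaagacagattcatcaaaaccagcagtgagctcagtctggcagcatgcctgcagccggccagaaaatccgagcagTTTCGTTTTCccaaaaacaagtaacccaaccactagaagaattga
Stat2 (chr10:128270248-128270397, plus strand): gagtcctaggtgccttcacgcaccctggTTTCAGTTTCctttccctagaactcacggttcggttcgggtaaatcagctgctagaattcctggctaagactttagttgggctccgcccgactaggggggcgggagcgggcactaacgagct

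Windows from 250 bases before to 50 after an annotated start were found for 33 of 35 members; Tap2 and Nlrc5 had no entry. The ISRE core occurred on either strand in 17 of these 33 genes (51.5%), against 3.99% of 27025 genes in the table. The GAS motif TTCNNNGAA, which reads the same on both strands, occurred in 7 of 33 members (21.2%) against 9.55% of all genes. Isg15 held 3 overlapping ISRE matches, from 78 to 57 bases before its start, and Gbp2 held TTTCACTTTC from 59 to 50 bases before its start. Gbp2b held the same 10 bases from 137 to 128 bases before its start. In Bst2 a GAS match overlapped an ISRE match, as in Ifitm3. Of the members called higher without LIF, 12 were in the table and 7 of them held an ISRE match; the 4 called lower, Stat2, Ifitm2, Ifitm3 and Slfn9, all held one. A match is a description of the letters, and it was found beside changes of either sign.

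**Figure D1:**
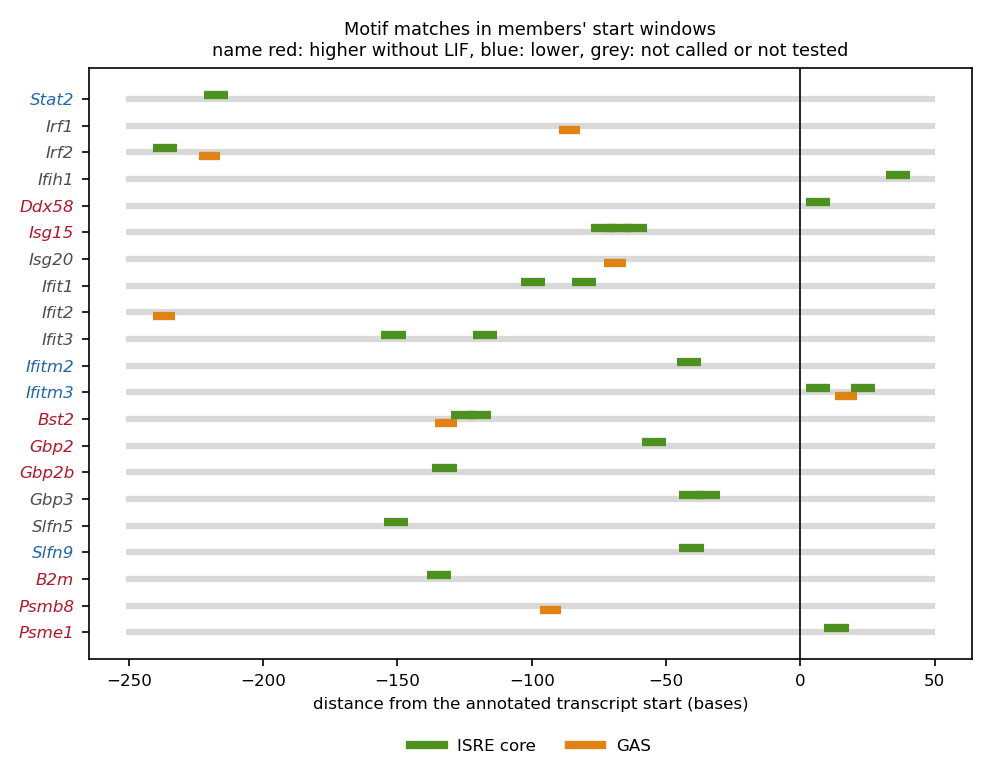
Positions of ISRE core and GAS matches in the start windows of the 21 members with at least 1 match, in bases from the annotated start (vertical line). Grey bars are the windows; names in red were called higher without LIF, names in blue lower. Matches stand in windows of both colours, among them 3 overlapping ISRE matches in Isg15.

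After 5 days without LIF, Gbp2, Gbp2b, Tap1, Tap2, Psmb8, Psmb9 and Nlrc5 went from 0 to 22 reads per LIF group to between 26 and 1207 reads per no LIF group, while Stat2, Slfn9, Ifitm2 and Ifitm3 fell. In edgeR's quasi-likelihood test over all genes (adjusted p under 0.05), 14 members were called higher and 4 lower among the 20 tested of 35. Of 10312 tested genes, 68.5% were called, 34.1% higher and 34.4% lower. The median log2 fold change was 1.29 over the tested members and -0.02 over all tested genes. The list was chosen with earlier results of these data known, which limits a comparison with all genes, here and with dTAG. The member counts do not speak for the whole list, since 8 of the 14 called higher passed the filter only through the no LIF group. These 8, Isg15, Gbp2, Gbp2b, Tap1, Tap2, Psmb8, Psmb9 and Nlrc5, could only be high there. Of the 9 members above the filter in all 4 groups, 5 were higher and 3 lower. The plot of levels by library gives the values behind these counts.

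**Figure D2:**
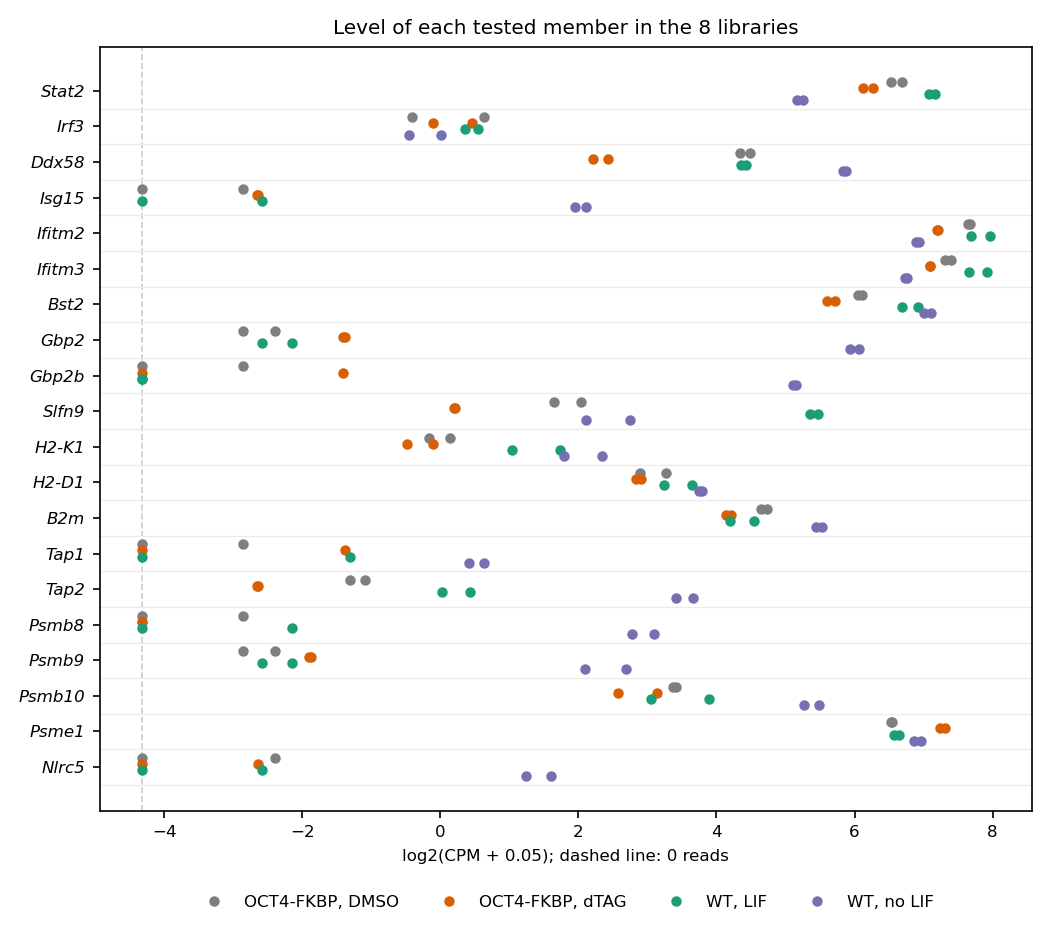
Level of the 20 tested members in each of the 8 libraries, as log2(CPM + 0.05); colours are the 4 groups and the dashed line is 0 reads. The no LIF libraries stand apart for Gbp2, Gbp2b, Psmb8, Psmb9, Nlrc5 and Isg15, whose other 6 libraries hold 0 to 3 reads each; lengths are not taken into account, so different genes are not compared.

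Stat2, which encodes a partner of IRF9, was at 143 and 135 CPM with LIF and at 35.7 and 37.9 CPM without it. Both libraries without LIF were far below both with it. The log2 fold change was -1.92 (SE 0.08, edgeR adjusted p = 4.2e-17), 3.79-fold lower. Irf3, the factor that RNA and DNA sensors activate, had 1.24 and 1.41 CPM with LIF and 0.683 and 0.955 CPM without it, and was not called (-0.72, SE 0.49, edgeR adjusted p = 0.20). All its reads came from 1 of its 2 accessions, a noncoding transcript by its prefix. Irf9, the DNA-binding part of the STAT complex, had 5 and 2 reads with LIF and 3 and 0 without, 1 and 1 in DMSO and 4 and 5 with dTAG. These low counts say nothing of its expression, for the reason given above.

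Ddx58, which encodes the RNA sensor RIG-I, went from 21.4 and 20.4 CPM with LIF to 58.7 and 57.1 CPM without it. It was 2.77-fold higher (edgeR adjusted p = 8.9e-13). Its transcript moved opposite to that of Trim25, a ubiquitin ligase that acts on RIG-I, which fell from 425 ± 8.96 to 103 ± 10.4 CPM (SD, n = 2; edgeR adjusted p = 3.8e-20).

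Among the effectors, Isg15, a ubiquitin-like protein that is attached to other proteins, had 0 and 1 read with LIF and 50 and 28 reads without it. The ratio was 81.2, with an exact 95% interval of 14.2 to 3248 that covers counting error only (edgeR adjusted p = 9.3e-09). The fitted log2 fold change of Isg15, 6.00, was 4.96 without WT LIF replicate 1 and 8.29 without WT LIF replicate 2, called in both. Ifit1 and Ifit2, which bind foreign RNA, had 0 reads with LIF. Without LIF they had 5 and 5, and 10 and 1 reads, at least 3.47-fold and 3.82-fold higher against a floor of 3 reads over the group. Both were under the filter; with no filter they were called (edgeR adjusted p = 0.014 and 0.011). Ifit2 has 2 accessions, so its bound covers only reads that fit 1 of them. Ifit3 had 2 reads in all, both without LIF.

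The membrane proteins among the effectors went other ways. Ifitm2, which hinders fusion of viruses with cell membranes, was at 205 and 248 CPM with LIF and at 119 and 122 CPM without it, 1.88-fold lower (edgeR adjusted p = 1.6e-11). Ifitm3, of the same family, was at 202 and 243 CPM with LIF and at 106 and 108 CPM without it, 2.08-fold lower (edgeR adjusted p = 1.1e-12). For both, the no LIF libraries lay well below either LIF library. Bst2, or tetherin, which holds budding viruses at the cell surface, rose only 1.19-fold, from 120 and 103 to 138 and 128 CPM (edgeR adjusted p = 0.0051). That call was lost without WT no LIF replicate 1 (adjusted p = 0.085). Ifitm1, with 4 accessions, had 3 and 5 reads with LIF and 3 and 2 without, 1 and 3 in DMSO and 6 and 2 with dTAG.

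The GBPs, interferon-induced GTPases that attack intracellular pathogens, had the highest ratios among the tested members. Gbp2 had 2 and 1 reads with LIF and 717 and 490 without it, that is 0.177 and 0.118 against 61.2 and 66.8 CPM. The ratio was 419 (exact 95% interval 143 to 2034; edgeR adjusted p = 6.7e-21). Gbp2b had no read in either LIF library and 404 and 260 reads without LIF. With the floor of 3 reads over the LIF group it was at least 230-fold higher (edgeR adjusted p = 4.4e-17). Both genes lie on chromosome 3, at the positions given with their sequences.

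The Schlafen gene Slfn9 went from 44.5 and 41.1 CPM with LIF to 4.27 and 6.68 CPM without it. It was 8.17-fold lower (log2 fold change -3.03, SE 0.16, edgeR adjusted p = 3.0e-15). Slfn5 had 5 and 9 reads with LIF and 9 and 5 without, 3 and 2 in DMSO and 1 and 2 with dTAG, and Slfn2 had 2 and 2 reads without LIF only.

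Of the class I genes themselves, B2m, the light chain of class I molecules, went from 18.4 and 23.2 CPM with LIF to 43.3 and 46.2 CPM without it, 2.17-fold higher (edgeR adjusted p = 1.4e-09). The heavy chain gene H2-K1 went from 3.27 and 2.00 to 5.04 and 3.41 CPM, a log2 fold change of 0.69 (SE 0.30, edgeR adjusted p = 0.043). Its reads come from only 1 of its 2 accessions. The H2-K1 call was lost in DESeq2 (adjusted p = 0.22), without WT LIF replicate 2 (0.25) and without WT no LIF replicate 1 (0.50). The second heavy chain gene, H2-D1, was at 12.4 and 9.41 CPM with LIF and at 13.8 and 13.4 CPM without it. It was not called (0.30, SE 0.16, edgeR adjusted p = 0.11) but passed without WT LIF replicate 1 (adjusted p = 0.023).

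Tap1 and Tap2 form the transporter that brings peptides into the endoplasmic reticulum. Tap2 went from 0.971 and 1.29 CPM with LIF to 12.6 and 10.6 CPM without it, 10.5-fold higher (edgeR adjusted p = 2.2e-11). Tap1 had 4 and 0 reads with LIF and 15 and 11 without (log2 fold change 2.69, SE 0.74, edgeR adjusted p = 0.0023). Its fitted value ran from 1.95 to 6.66 over the alternatives that tested it, all of them called; the extremes are the fits without WT LIF replicate 2 and without WT LIF replicate 1. Nlrc5, the transactivator of class I genes, had 0 and 1 read with LIF and 35 and 17 without. The ratio was 54.1 (exact 95% interval 9.30 to 2179; edgeR adjusted p = 7.0e-07). The fitted log2 fold change of Nlrc5, 5.42, was 4.37 without WT LIF replicate 1 and 7.70 without WT LIF replicate 2, called in both.

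The immunoproteasome replaces 3 catalytic subunits of the proteasome by inducible ones. Psmb8 had 2 and 0 reads with LIF and 99 and 50 without, a ratio of 77.6 (exact 95% interval 21.1 to 646; edgeR adjusted p = 1.3e-10). The fitted log2 fold change of Psmb8, 6.09, was 9.15 without WT LIF replicate 1 and 5.38 without WT LIF replicate 2, called in both. Psmb9 had 2 and 1 reads with LIF and 75 and 31 without, a ratio of 36.8 (12.3 to 181; edgeR adjusted p = 1.9e-09). Psmb10 went from 14.7 and 8.23 CPM to 44.9 and 38.5 CPM, 3.55-fold higher (edgeR adjusted p = 1.7e-10). All 3 inducible subunits were called higher. Psmb8 and Psmb9 passed the filter only through the no LIF group and so could only be high there. The constitutive subunits that the inducible ones replace moved by small amounts. The log2 fold changes were -0.26 for Psmb5 (SE 0.10), -0.17 for Psmb6 (SE 0.06) and 0.15 for Psmb7 (SE 0.05; edgeR adjusted p = 0.024, 0.013 and 0.017). Per 100 reads of Psmb5 there were 0.231 and 0 reads of Psmb8 with LIF and 13.7 and 13.1 without; the genes differ in length, so this ratio is compared between libraries only.

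**Figure D3:**
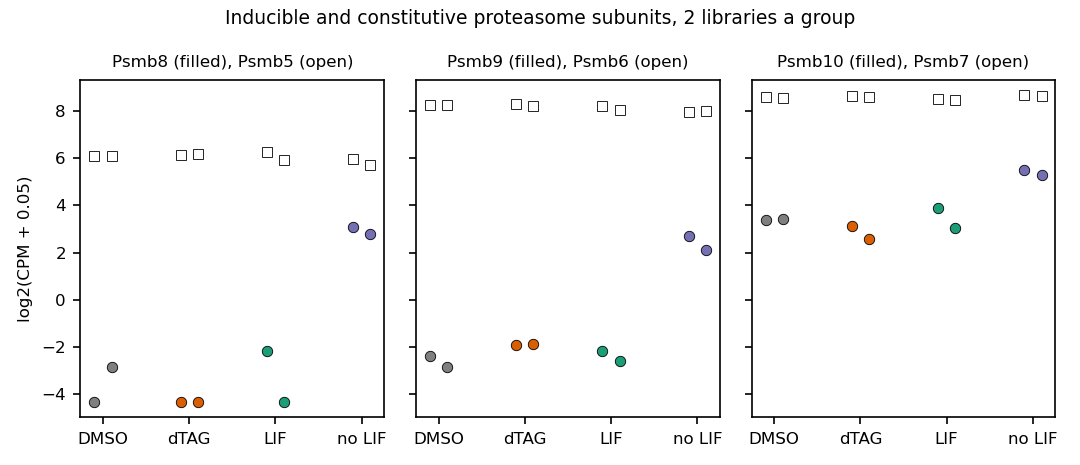
Inducible subunits (filled circles) and the constitutive subunits they replace (open squares) as log2(CPM + 0.05), 2 libraries in each of 4 groups; genes of different length are not compared in level. The circles of Psmb8, Psmb9 and Psmb10 are highest without LIF, at 6.82 to 8.45, 4.23 to 6.40 and 38.5 to 44.9 CPM, while the squares stay close to level. Psmb8 and Psmb9 passed the filter only through the no LIF group.

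Psme1, of the proteasome activator PA28, rose 1.24-fold without LIF, from 99.7 and 95 to 125 and 116 CPM (edgeR adjusted p = 2.5e-04). Its partner Psme2, mostly identical to a copy, had 1 and 5 reads with LIF and 2 and 2 without, 3 and 4 in DMSO and 3 and 1 with dTAG. Tapbp had 1 and 0 reads with LIF and 4 and 1 without.

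Other genes of the pathway were taken from lists chosen with earlier results of these data known. Without LIF, 34.1% of all tested genes were called higher and 34.4% lower, the shares to set beside each list count that follows. Of 11 receptor and signalling genes, 6 could be tested; 3 were higher without LIF and 0 lower. Ifngr1, a chain of the interferon gamma receptor, rose from 8.91 ± 1.87 to 17.6 ± 0.528 CPM (SD, n = 2; edgeR adjusted p = 3.0e-06), and Ifngr2, the other chain, from 8.21 ± 1.13 to 13.5 ± 1.29 CPM (edgeR adjusted p = 8.4e-04). Ifnar1, of the type I receptor, rose 1.30-fold (edgeR adjusted p = 6.0e-05); Ifnar2 was not called (-0.07, SE 0.42, edgeR adjusted p = 0.90). Of 12 nucleic acid sensing genes, 8 were tested, 1 higher and 4 lower. Tbk1, a kinase that activates IRF3, gave a log2 fold change of 0.18, and Myd88, an adaptor of Toll-like receptors, -1.09.

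Of the 40 other interferon-induced genes, 22 were tested, 11 higher and 7 lower, with a median log2 fold change of 0.45. Of all tested genes, 34.1% were higher and 34.4% lower, so calls in both directions are not particular to this list. Of these 22, 5 were above the filter in 1 group only and so had to be high in that group, which limits the count and the median, here and with dTAG. Cxcl10, a chemokine and 1 of the 5, through the no LIF group, had 0 and 2 reads with LIF and 101 and 56 without (edgeR adjusted p = 9.1e-11). Parp12, an ADP-ribosyltransferase, rose 6.27-fold. In the other direction, Ube2l6, the conjugating enzyme of ISG15, went from 36.7 ± 1.22 to 1.31 ± 0.315 CPM (SD, n = 2; edgeR adjusted p = 2.4e-18). Isg15 itself had risen. Phf11d fell 25.9-fold. The oligoadenylate synthetase genes were divided: Oas1a went from 208 and 180 reads to 9 and 5 (log2 fold change -4.72), Oasl2 from 2 and 3 to 26 and 16 (3.06), Oas1c gave 0.98, and Oas3 was not called (0.43, edgeR adjusted p = 0.10). Oas1b, Oasl1, Mx1 and Mx2 had 0 reads in all libraries, Oas1g and Oas2 14 and 1; of these only Mx1 has a single accession.

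Of 14 further interferon GTPases 3 were tested and called higher, Irgm2 (3.48-fold), Igtp (4.59-fold) and Irgm1. Irgm1, with 0 reads with LIF and 62 without, passed the filter only through the no LIF group and so could only be high there. Of 18 other class I and loading genes 10 were tested, 3 higher and 3 lower. Erap1, the peptidase that trims class I peptides, rose from 8.59 ± 0.163 to 66.2 ± 2.17 CPM (SD, n = 2; edgeR adjusted p = 5.9e-18). H2-Q4, a nonclassical class I gene with similar copies, rose 4.27-fold. Calr, a loading chaperone, was lower (-0.24). The list also holds H2-Ke6, 1 of the 3 called lower (-1.47), which lies in the MHC region but encodes a hydroxysteroid dehydrogenase and is no class I or loading gene. Of 16 proteasome genes that are not interferon-induced, 15 were tested, 3 higher and 5 lower. None of 6 further Schlafen genes could be tested.

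Summed levels of other cell types' markers also differed with LIF withdrawal. The 8 fibroblast markers summed to 9.27 to 9.29 CPM with LIF and 19.8 to 20.4 CPM without it, and 5 of 8 had a read in either group; Dcn was at 0. The 4 endothelial markers summed to 5.29 to 5.38 CPM with LIF and 8.45 to 9.55 CPM without it, and the 2 with reads went in opposite directions: Cdh5 from 0 to 154 reads and Kdr from 106 to 15 reads (log2 fold change -2.74, edgeR adjusted p = 5.5e-08). Pecam1 and Tek were at 0. The 5 MHC class II markers went from 17.5 to 18.4 CPM down to 3.14 to 5.21 CPM, and the blood list from 26.5 to 33.8 CPM down to 6.06 to 6.41 CPM; within the blood list Csf1r went from 0 to 32 reads. The part of such cells in the class I and GBP values was not tested. In bulk RNA, fewer cells of a type and less RNA per cell cannot be told apart.

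After 24 h with dTAG the members were mostly called lower where they were called. In the same fit 1 member was called higher and 7 lower among the 20 tested of 35, while 40.5% of all tested genes were called, 20.1% higher and 20.4% lower. The median log2 fold change was -0.30 over the tested members and -0.00 over all tested genes. Of the 20, 8 passed the filter only through the no LIF group, and their fits here rest on few reads, which limits this median. In a fit of the DMSO and dTAG libraries alone, 11 members could be tested. The 7 lower members were Stat2, Ddx58, Ifitm2, Ifitm3, Bst2, Slfn9 and B2m, and the 1 higher was Psme1. Isg15, Gbp2b, Tap1, Psmb8 and Nlrc5 had 3 or fewer reads in both groups, and no fold is given. A rise of the kind seen without LIF was not detected for these genes at this depth.

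Ddx58 was the member with the largest called decrease. It was at 22.3 and 20.2 CPM in DMSO and at 4.6 and 5.32 CPM with dTAG. Both dTAG libraries were far below both DMSO libraries, 4.25-fold (log2 fold change -2.09, SE 0.15, edgeR adjusted p = 1.5e-11). Slfn9 was at 3.09 and 4.05 CPM in DMSO and at 1.09 and 1.11 CPM with dTAG, with 22, 46, 10 and 10 reads behind these values. The decrease was 3.30-fold (edgeR adjusted p = 2.6e-04).

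The other decreases were small. Stat2 went from 92.5 and 103 to 69.9 and 76.8 CPM (1.34-fold lower, edgeR adjusted p = 8.8e-05). Bst2 went from 69.2 and 66.0 to 52.7 and 48.4 CPM (1.33-fold lower, edgeR adjusted p = 4.0e-04). B2m went from 26.4 and 25.1 to 18.4 and 17.6 CPM (1.42-fold lower, edgeR adjusted p = 0.0015). In each of these the groups did not overlap. Ifitm2 fell 1.37-fold, from 204 and 201 to 148 and 146 CPM (edgeR adjusted p = 7.3e-06), and Ifitm3 1.20-fold, from 159 and 169 to 136 and 137 CPM (edgeR adjusted p = 0.0041). The Ifitm3 call was lost without OCT4-FKBP DMSO replicate 2 (adjusted p = 0.069).

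Psme1 rose from 92.5 and 93.5 CPM in DMSO to 151 and 158 CPM with dTAG, 1.66-fold (log2 fold change 0.73, SE 0.07, edgeR adjusted p = 1.1e-09). Its dTAG levels were the highest of the 4 groups. Psmb10 was at 10.2 and 10.6 CPM in DMSO and at 8.75 and 5.88 CPM with dTAG, and was not called (-0.51, SE 0.23, edgeR adjusted p = 0.075); it passed in 6 alternatives, among them a fit of the 4 OCT4-FKBP libraries alone (adjusted p = 0.030) and fits without OCT4-FKBP dTAG replicate 1, WT LIF replicate 1 or WT LIF replicate 2 (0.014, 0.018 and 0.020). H2-K1 (-0.33, SE 0.54), H2-D1 (-0.19, SE 0.20) and Irf3 (-0.10, SE 0.48) were not called (edgeR adjusted p = 0.67, 0.48 and 0.90). Tap2 had 3 and 4 reads in DMSO and 1 and 1 with dTAG, Gbp2 1 and 1 against 3 and 3, and Psmb9 1 and 1 against 2 and 2, none of them called (edgeR adjusted p = 0.17, 0.24 and 0.54).

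**Figure D4:**
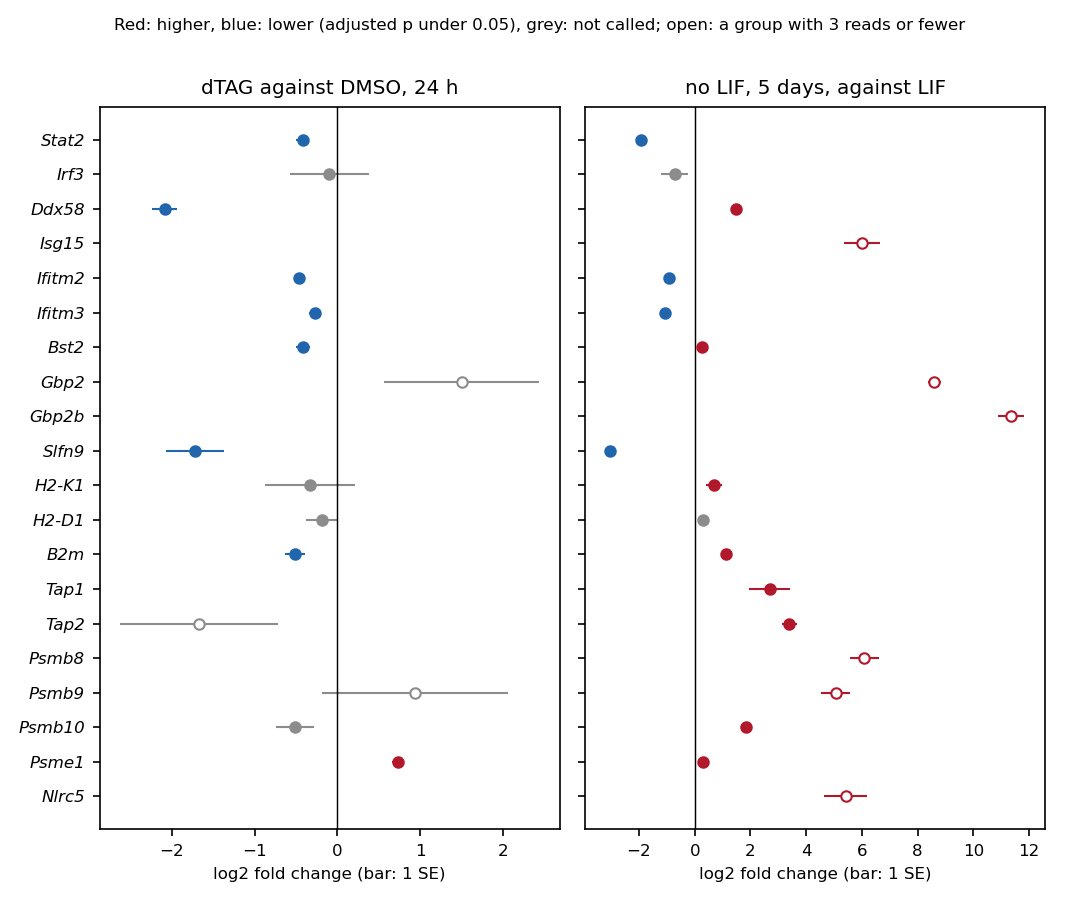
Log2 fold change of tested members with dTAG against DMSO (left) and without LIF against LIF (right), bars 1 SE; the 2 horizontal scales differ. Open circles have a group with 3 reads or fewer, where the fitted value depends on the prior count, and members with 3 or fewer reads in both groups are left out at left. Ddx58, Bst2 and B2m lie left of 0 with dTAG and right of 0 without LIF.

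Of the receptor and signalling genes, 5 of 6 tested rose with dTAG and 0 fell. With dTAG, 20.1% of all tested genes were called higher and 20.4% lower, the shares to set beside each list count that follows. Ifngr1 went from 7.68 ± 0.34 to 17.0 ± 1.55 CPM (SD, n = 2; edgeR adjusted p = 2.8e-06) and Ifngr2 from 8.52 ± 1.52 to 19.0 ± 2.23 CPM (edgeR adjusted p = 2.7e-06). Ifnar1 gave 0.30 (edgeR adjusted p = 0.0016) and Ifnar2, with 3 and 9 against 13 and 12 reads, was not called (1.08, SE 0.55, edgeR adjusted p = 0.13). Of the sensing genes 3 of 8 were higher and 1 lower; Myd88 rose 1.47-fold, Ticam1, another Toll-like receptor adaptor, 1.62-fold, and the kinase gene Ikbke fell 1.52-fold.

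Of the other interferon-induced genes 6 of 22 tested were higher and 5 lower, against 20.1% and 20.4% of all tested genes. Their median log2 fold change was 0.11. Helz2 rose 2.79-fold and Ube2l6 1.38-fold; Phf11d fell 2.08-fold and Dtx3l, a ubiquitin ligase, 1.5-fold. Oasl2 had 3 and 0 reads in DMSO and 19 and 14 with dTAG (edgeR adjusted p = 3.5e-04), Oas3 gave 0.73 (edgeR adjusted p = 0.040), and Oas1a and Oas1c were not called (-0.23 and 0.71, edgeR adjusted p = 0.17 and 0.10). Of the other GTPases 2 of 3 tested rose, Irgm2 4.23-fold and Igtp 2.68-fold. Of the class I and loading genes 3 of 10 were higher, Erap1 by 3.18-fold and the chaperone Pdia3 by 1.11-fold among them, and 2 lower. These were H2-M3, with 1 and 12 reads in DMSO and 0 and 1 with dTAG, so that the groups touch, and H2-Q4, with 5 and 8 against 1 and 2. Of the constitutive proteasome genes 0 of 15 rose and 2 fell, the activator genes Psme4 (1.56-fold) and Psme3 (1.23-fold). Psmb5, Psmb6 and Psmb7 gave log2 fold changes of 0.08, 0.01 and 0.04, none called (edgeR adjusted p = 0.57, 0.97 and 0.57).

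Summed marker levels were lower here. From DMSO to dTAG the blood list went from 53.2 to 55.6 CPM down to 27.4 to 32.5 CPM, the MHC class II list from 4.75 to 5.05 down to 2.08 to 2.33 CPM, the fibroblast list from 21.4 to 23.4 down to 16.4 to 19.4 CPM and the endothelial list from 4.07 to 4.40 down to 1.42 to 1.66 CPM. Of the 8 blood markers, 2 had a read in DMSO and 4 with dTAG, and of the 3 tested 1 was called lower and 0 higher. Most of the fibroblast sum was Thy1, at a mean of 17.3 CPM in DMSO and 13.5 CPM with dTAG and not called (edgeR adjusted p = 0.090). Col1a2 of the same list went the other way, from 5 and 6 to 17 and 17 reads (log2 fold change 1.63, edgeR adjusted p = 0.0054). The part of these lists in the decreases of the members was not tested.

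The responses to dTAG and to LIF withdrawal use separate control libraries, and their difference was tested directly as the response without LIF minus the response to dTAG. Of the 20 tested members, 9 were called higher in this difference and 5 lower; of all tested genes 55% were called, 26.4% higher and 28.5% lower. Of the 9, Gbp2, Gbp2b, Tap2, Psmb8 and Psmb9 passed the filter only through the no LIF group and so could only be higher in this difference. The lines differ and so do the times, 24 h and 5 days, so the difference is between these treatments as applied. Ddx58 went in opposite directions, 4.25-fold lower with dTAG and 2.77-fold higher without LIF (difference 3.56, SE 0.18, edgeR adjusted p = 6.0e-15). B2m (1.63, SE 0.17, edgeR adjusted p = 5.1e-09) and Bst2 (0.67, SE 0.12, edgeR adjusted p = 2.6e-05) also went down with dTAG and up without LIF.

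The other members called higher in the difference were Gbp2, Gbp2b, Tap2, Psmb8, Psmb9 and Psmb10. Psmb10 differed by 2.34 (SE 0.28, edgeR adjusted p = 8.4e-08) and Tap2 by 5.06 (SE 1.02, edgeR adjusted p = 1.5e-04). The differences of Gbp2b and Psmb8 lost their call without OCT4-FKBP DMSO replicate 2, which leaves no DMSO read of either gene (adjusted p = 1 for both). That of Psmb9 (4.12, edgeR adjusted p = 0.041) lost its call in 7 of 15 alternatives, each a fit without 1 library, OCT4-FKBP DMSO replicate 1 or 2, OCT4-FKBP dTAG replicate 1 or 2, WT LIF replicate 1 or 2 or WT no LIF replicate 1 (adjusted p = 0.057 to 0.17). Stat2 (-1.51), Ifitm3 (-0.79) and Ifitm2 (-0.45) fell more without LIF than with dTAG, and Psme1 rose more with dTAG (-0.42, SE 0.10, edgeR adjusted p = 4.8e-04). Slfn9 fell more without LIF (-1.31, edgeR adjusted p = 0.016), a call lost without either dTAG library or without WT no LIF replicate 1 (adjusted p = 0.063 to 0.068).

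The control groups themselves, the tagged line in DMSO and the parental line with LIF, differed in some members. With DMSO against LIF, 1 member was called higher and 6 lower of 20 tested; of all tested genes 40.7% were called, 18.5% higher and 22.1% lower. These are the control libraries of the other comparisons, and effects of the tag, of the line's history, of DMSO and of a culture batch cannot be separated in them. Slfn9 had 3.09 and 4.05 CPM in the tagged line and 44.5 and 41.1 CPM in the parental line, 11.7-fold lower (log2 fold change -3.54, SE 0.17, edgeR adjusted p = 1.4e-14). Without LIF the parental line was at 4.27 and 6.68 CPM.

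Bst2 was 1.66-fold lower in the tagged line (69.2 and 66.0 against 120 and 103 CPM, edgeR adjusted p = 6.7e-08), Stat2 1.42-fold lower (edgeR adjusted p = 4.5e-06) and Ifitm3 1.35-fold lower (edgeR adjusted p = 2.1e-05). H2-K1 was at 0.842 and 1.06 against 3.27 and 2.00 CPM (2.76-fold lower, edgeR adjusted p = 0.0054), a call lost in DESeq2 (adjusted p = 0.051) and without WT LIF replicate 1 (0.15). Tap2 was at 0.421 and 0.352 against 0.971 and 1.29 CPM (2.87-fold lower, edgeR adjusted p = 0.032). Its call was lost in 4 alternatives, DESeq2 (adjusted p = 0.092) and the fits without OCT4-FKBP DMSO replicate 1, OCT4-FKBP DMSO replicate 2 or WT LIF replicate 2 (0.078, 0.21 and 0.14). B2m was higher in the tagged line, 1.25-fold (26.4 and 25.1 against 18.4 and 23.2 CPM, edgeR adjusted p = 0.035). This call was lost in DESeq2 (adjusted p = 0.11) and without OCT4-FKBP DMSO replicate 1, OCT4-FKBP DMSO replicate 2 or WT LIF replicate 1 (0.096, 0.061 and 0.46). Ddx58, at 22.3 and 20.2 against 21.4 and 20.4 CPM, was nearly equal in the control groups (log2 fold change 0.01, SE 0.12, edgeR adjusted p = 0.98). Of members that were not called, Ifitm2 (-0.16, SE 0.07, edgeR adjusted p = 0.065) passed without WT LIF replicate 1 (2.3e-04) and with at least 5 CPM in 2 libraries (0.040). H2-D1 (-0.42, SE 0.18, edgeR adjusted p = 0.064) passed without OCT4-FKBP DMSO replicate 1 (0.043) and without WT LIF replicate 2 (0.020), and Psmb10 (-0.18, SE 0.20, edgeR adjusted p = 0.51) without WT LIF replicate 2 (0.035).

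**Figure D5:**
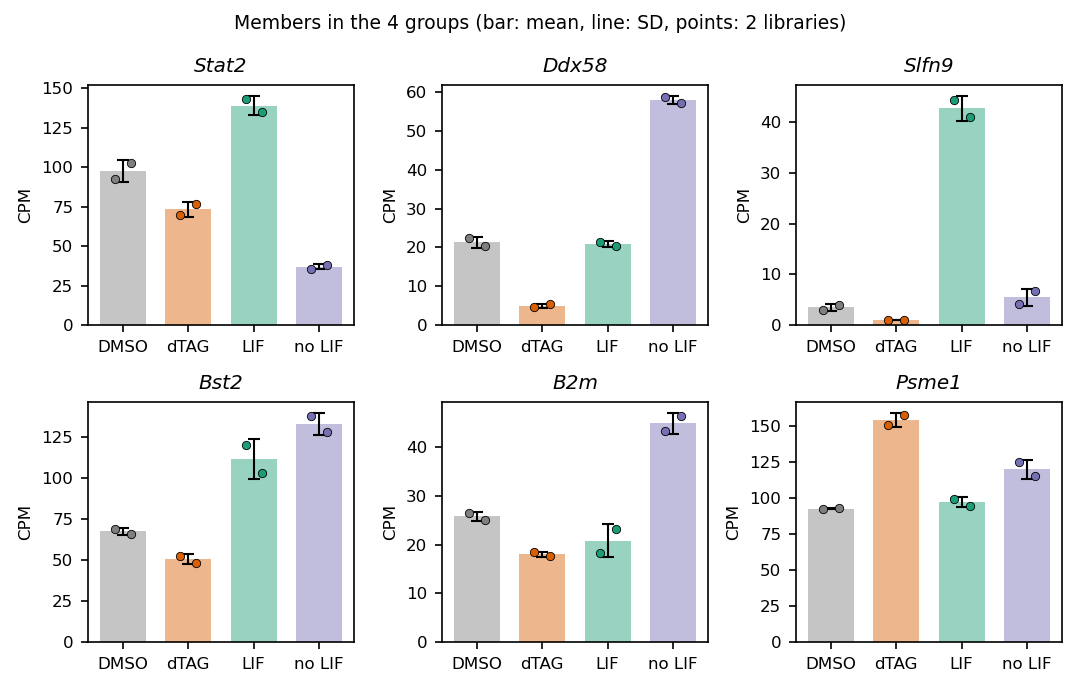
CPM of 6 members in the DMSO and dTAG groups of the OCT4-FKBP line and the LIF and no LIF groups of the parental line; bars are means, lines SD and points the 2 libraries. Slfn9 is highest with LIF (41.1 and 44.5 CPM), Ddx58 is lowest with dTAG and highest without LIF, and Psme1 is highest with dTAG.

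Over both responses, 4 members were called lower in each (Stat2, Ifitm2, Ifitm3 and Slfn9). Another 3 were lower with dTAG and higher without LIF (Ddx58, Bst2 and B2m), and 1, Psme1, was higher in both. The share of all tested genes in these joint classes was not determined, so the counts only describe the members. Of all tested genes, 40.5% were called with dTAG and 68.5% without LIF. A further 10 were called only without LIF. Of these, the direct test of the difference was passed by Gbp2, Gbp2b, Tap2, Psmb8, Psmb9 and Psmb10. All of these but Psmb10 passed the filter only through the no LIF group and so could only be higher in the difference. The test was not passed by Isg15 (5.13, SE 2.50, edgeR adjusted p = 0.084), H2-K1 (1.01, SE 0.62, 0.17), Tap1 (1.28, SE 2.46, 0.69) and Nlrc5 (5.40, SE 2.70, 0.094), whose DMSO and dTAG libraries hold few reads. Irf3 and H2-D1 were called in neither response. The difference for H2-D1 (0.49, SE 0.26, edgeR adjusted p = 0.11) passed without OCT4-FKBP DMSO replicate 2 (0.046) and without WT LIF replicate 1 (0.028).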

How the data were processed

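The members and gene lists were chosen with earlier results of these data known. Each library's deposited table holds whole-number read counts per RefSeq accession. Per the submitters' processing notes the authors used HISAT2, HTSeq and build mm9; versions and the strand setting were not given in the sources used here. HTSeq's summary lines stayed out of library sizes and tests (reads without a feature, 10.4% to 14.9% of uniquely aligned reads). Of 41565 accessions, 40231 were named through the RefSeq table (GRCm38, used for names only), 121 through GENCODE, and 1213 kept their accession; counts were summed per symbol. edgeR 4.0.16 in R 4.3.3 (TMM, filterByExpr, glmQLFit, glmQLFTest) fitted the 4 groups over all 8 libraries, 4 residual degrees of freedom, and tested 10312 genes with Benjamini-Hochberg adjustment; the biological coefficient of variation was 4.43%. A standard error is the log2 fold change over the root of its F statistic. The pipeline was tested on simulated data. The rule for named genes took all 35 members; from the other lists, at most the 2 called genes of smallest adjusted p per direction and comparison, plus the Oas and Mx genes, the interferon receptors and Psmb5, Psmb6 and Psmb7; some items under this rule are not reported here. Irgm1 and the markers Kdr, Cdh5, Csf1r, Thy1 and Col1a2 were named after their values were seen. Alternatives were DESeq2 1.42.0, 2 other scalings, 2 filters, a replicate block, fewer libraries, single accessions and leaving out each library. Replicates of a group differed by more than sampling noise (chi-square per degree of freedom 1.75 to 4.58). Intervals and floors cover counting error only.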

Additional observations from a re-analysis of the deposited data

How the results depend on the processing

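Counts of called members held within 1.5 times under most alternatives. The 14 members higher without LIF became 9 with at least 5 CPM in 2 libraries, which tested 14 members, and the 1 member higher in DMSO than in WT LIF became 0 in DESeq2. Leaving out each library in turn gave 12 to 15 and 4 to 4 members higher and lower without LIF, 1 to 1 and 6 to 8 with dTAG, 7 to 9 and 4 to 5 in the difference, and 0 to 1 and 5 to 7 for DMSO against WT LIF. With a replicate block the counts were 14 and 4, 1 and 8, 9 and 5, and 1 and 6; r1 and r2 share only a number, since their differences correlated at -0.01 to 0.05 between groups. Some uncalled values changed sign. For DMSO against WT LIF, Ddx58 gave -0.0057 with the 5 CPM filter and -0.018 to 0.12 without 1 library, and the same fits gave Irf3 -0.86 to 0.22, Ifitm2 -0.30 to 0.012, Tap1 -3.96 to 2.31 and Psmb10 -0.47 to 0.34. Irf3 with dTAG ran from -0.44 to 0.64 and the difference for Tap1 from -1.03 to 5.26. The cause was not tested. Where a library is left out, its group's other library is assumed to vary like the other groups. Outside the no LIF group, Isg15, Nlrc5, Psmb8, Psmb9, Tap1 and the GBPs had 0 to 4 reads a library, which limits what can be read of them there.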
